A study of Mus musculus with 2 samples.

Results

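A subset of CD4 thymocytes marked by transcripts of Igfbp4 and Dapl1 was described in single-cell 3' RNA profiles of sorted thymic regulatory T (Treg) lineage cells. A member was a cell with at least 3 unique molecular identifiers (UMIs, each standing for 1 captured transcript) of Igfbp4 and Dapl1 together. It also had 0 UMIs each of Foxp3, Il2ra, Ccr9, Tnfrsf9, Mki67 and Top2a, and at most 2 UMIs of S1pr1. The rule took 170 of the 4453 cells that could be assigned to a mouse, which is 3.82% (95% interval 3.27 to 4.42).

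The Lta-/- group was 1 C57BL/6 mouse that carried the Foxp3eGFP reporter and lacked Lta, the gene of the secreted TNF family cytokine lymphotoxin alpha. The control group was 1 C57BL/6 Foxp3eGFP mouse with the same reporter, which makes green fluorescent protein where Foxp3, the lineage factor of Treg cells, is expressed. The mice's age was not given in the sources used here. Thymus cells were depleted of CD8+ and CD11c+ cells, and live CD4+CD8- CCR6- CD3e+ cells with CD25, eGFP or both were sorted, 20000 per mouse. They were tagged with a hashtag antibody per mouse and loaded in 1 capture well. Members had therefore passed a gate on CD25 or eGFP protein while having no UMI of Il2ra, which encodes CD25, or of Foxp3. With 1 mouse per genotype the spread between animals is unknown and nothing was tested. Intervals are exact, at 95%, and cover counting error only. Levels are UMIs per 1000000 UMIs of the pooled cells of a class (CPM), and ratios are log2 ratios of such levels.

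CD4 single-positive thymocytes that leave the selection stage switch off immature genes such as Cd24a and Cd69. They take up genes of naive T cells such as Klf2, Ccr7 and Il7r before they exit through the receptor S1pr1. Igfbp4 encodes a secreted protein that binds insulin-like growth factors, and its transcript is known from naive CD4 T cells and recent thymic emigrants. Dapl1 encodes a small death-associated protein-like protein that is also transcribed in naive T cells. Il7r encodes the receptor chain for interleukin 7, a survival signal of naive T cells, and is low in many Treg cells.

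Igfbp4 lies on chromosome 11 at 99040005 to 99052655 and Dapl1 on chromosome 2 at 59484653 to 59505020 (GRCm38). The pair was not shared evenly. Igfbp4 had a UMI in 163 of the 170 members and Dapl1 in 30, and both were seen in 23. Igfbp4 alone was seen in 140 members and Dapl1 alone in 7, so most members were chosen by Igfbp4. The name "Igfbp4 and Dapl1 positive" thus holds for both genes in few of the cells. After each cell was thinned to 3000 UMIs, 93.3% of the 165 members that deep had Igfbp4 and 11.5% had Dapl1, against 15.8% and 2.26% of the 3979 other cells. Among cells rich in Ccr9 the thinned shares were 4.88% and 0% (interval up to 1.78%).

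These values chose the members and are a description. Igfbp4 stood at 1126 CPM in Lta-/- members and 1069 CPM in Foxp3eGFP members, against 164 CPM in other Lta-/- cells and 184 CPM in other Foxp3eGFP cells. Dapl1 stood at 88.8 CPM in Lta-/- members and 64.3 CPM in Foxp3eGFP members, against 15.8 and 10.0 CPM in the other cells of the same mice. The pair is not limited to members, since 640 assigned cells had at least 3 UMIs of it. Of these, 240 had a UMI of Top2a, 211 of Mki67, 113 of Ccr9, 67 of Tnfrsf9, 59 of Foxp3 and 59 of Il2ra, and 196 had more than 2 UMIs of S1pr1. In cells with Mki67 or Top2a, Igfbp4 stood at 415 CPM, and in cells with Foxp3 at 98.2 CPM.

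**Figure D1:**
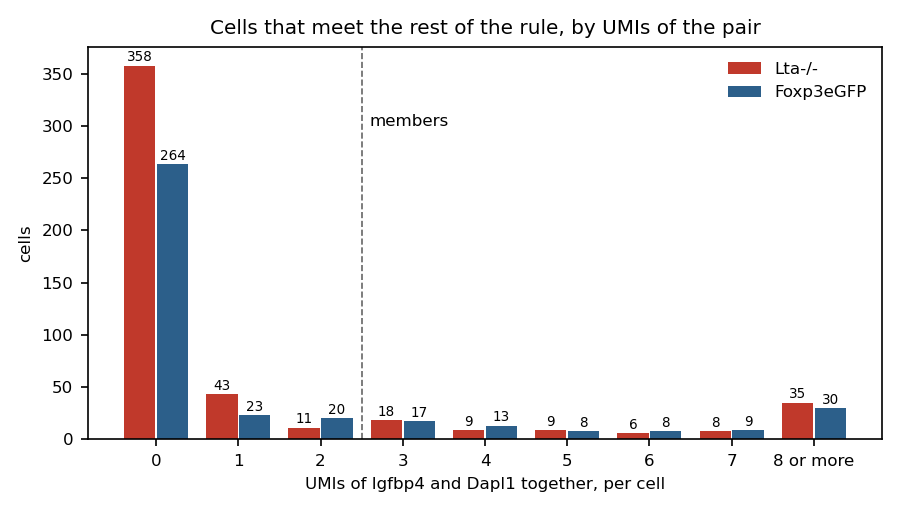
Number of cells (vertical axis) with each UMI count of Igfbp4 and Dapl1 together (horizontal axis) among the 889 cells that met the rest of the rule, by mouse. The dashed line marks the threshold of 3 UMIs: 622 cells had 0 UMIs, 31 cells had 2 UMIs just outside it, and 35 cells had 3 UMIs just inside it.

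The threshold did not fall in a gap of the distribution. At 3 UMIs there were 18 Lta-/- and 17 Foxp3eGFP cells, and at 4 UMIs 9 and 13. Of the 889 cells that met the rest of the rule, 622 had 0 UMIs of the pair, 66 had 1 and 31 had 2. Just inside, 35 cells had 3 UMIs, 70 had 4 to 7 and 65 had 8 or more. Cells with 3 UMIs had Igfbp4 at 498 CPM and Dapl1 at 52.4 CPM, and cells with 2 UMIs had them at 312 and 53.0 CPM. The chosen cells were deeper: the median UMI count was 6727.5 in members and 5426 in other cells, against 4267.5 in the cells at 0 UMIs of the pair.

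The UMIs of each cell were also split at random into equal portions, the rule was applied to the first portion, and levels were read from the held-out portion. It then took 174 cells. In the held-out portion, Igfbp4 stood at 1233 CPM in chosen cells and 167 CPM in other cells, and Dapl1 at 77.3 and 11.2 CPM. Genes required at 0 were low there too. Foxp3 was at 3.16 CPM in chosen cells and 55.5 CPM in others, Il2ra at 12.6 and 87.9 CPM, Tnfrsf9 at 4.73 and 198 CPM and Ccr9 at 14.2 and 105 CPM. S1pr1 was at 287 CPM in chosen cells and 222 CPM in others, so in the held-out portion it was not lower in the chosen cells. The limits of the rule were not scaled to the portion, so a chosen cell could hold more than 2 UMIs of S1pr1 in all. In the full counts S1pr1 was at 143 CPM in members and 226 CPM in other cells.

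Members made up close to the same share of both mice. They were 85 of 2244 Lta-/- cells (3.79%, 3.04 to 4.66) and 85 of 2209 Foxp3eGFP cells (3.85%, 3.08 to 4.74), a log2 share ratio of -0.02 (-0.47 to 0.43). The interval allows a difference of either sign. Cells that met the rest of the rule, at any level of the pair, were 22.1% of Lta-/- cells and 17.7% of Foxp3eGFP cells, with a log2 ratio of 0.32 (0.13 to 0.51). Within them, members were 17.1% (13.9 to 20.7) in the Lta-/- mouse and 21.7% (17.7 to 26.1) in the Foxp3eGFP mouse. With at least 3 UMIs of the pair and no other condition, the shares were 13.3% of Lta-/- cells and 15.4% of Foxp3eGFP cells.

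Il7r, the remaining marker, was not part of the rule. It was at 399 CPM in Lta-/- members and 341 CPM in Foxp3eGFP members, against 261 and 188 CPM in the other cells of those mice. A UMI of Il7r was found in 70.0% of members and 35.2% of other cells, and after thinning in 55.2% and 27.7%. Its level was higher still, 870 CPM, in cells rich in Ccr9. Its log2 ratio between members and other cells was 0.61 in the Lta-/- mouse and 0.86 in the Foxp3eGFP mouse.

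Transcripts of CD4 T cells were present in members at about the level of the rest. Cd3e, a chain of the T cell receptor complex, was at 613 CPM in members and 618 CPM in other cells, with UMIs in 167 of 170 members. Cd4 was at 149 CPM in members and 171 CPM in other cells. Of the 10 markers of mature CD4 single-positive cells, all measured, 2 were at least 1.5-fold higher in members than in other cells (Il7r and Lef1) and 0 were lower; over all 10700 genes measured, 4.62% were that much higher and 23.1% lower, 27.7% in all. A gene counted as measured at 50 or more UMIs in both classes together. The median log2 ratio of these 10 was 0.10, against -0.18 over all genes.

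Markers of other cell types were sparse. The gamma-delta T cell list summed to 5.19 CPM in members, with 4 of 7 genes at 0, against 62.0 CPM in other cells. The plasma cell list summed to 21.6 CPM in members and 250 CPM in other cells, and the NK and innate lymphoid list to 18.2 and 54.8 CPM, with 5 of 8 genes at 0 in members. The CD8 T cell list summed to 131 CPM in members and 166 CPM in other cells, and the double-positive thymocyte list to 202 and 298 CPM. The B cell list stood at 206 CPM in members against 183 CPM, and the myeloid list at 144 CPM against 176 CPM. A single Lta-/- member held 98 of the 111 Cd74 UMIs of all members, 31 of 31 H2-Aa UMIs and 53 of 54 Lyz2 UMIs, beside 4 UMIs of Cd3e and 3 of Igfbp4. Erythroid genes had 0 UMIs in members. The natural killer T list summed to 44.1 CPM in members and 123 CPM in other cells, and the thymic epithelium list to 25.1 and 40.4 CPM. From the 185 cells with both hashtags, a like number of doublets within a mouse, 185.02 or 4.16% of assigned cells, was estimated to remain.

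When all cells were set against all other cells in a space built without the 9 genes of the rule, members lay near each other. On average 25.2% of the nearest neighbours of a member were members, against 3.63% for other cells and a share of 3.82% over all cells. The 15 nearest cells counted the cell itself, which was left out of this average. Among the 889 cells that met the rest of the rule, members were 170. Genes that vary with those of the rule stayed in the space, so the rule bears on this closeness, and its part was not tested. Of 6 clusters, 1 with 947 cells held 141 members (82.9%), and members were 14.9% of it. Its leading genes were Jchain and Mzb1, which are plasma cell genes, then Rflnb, Il6ra and Arl4c, so it was given no cell type name. That cluster also held 517 cells with 0 UMIs of the pair and 148 cells with at least 3 UMIs that failed another condition.

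Of the 10700 measured genes, 4.62% were at least 1.5-fold higher in members than in all other cells and 23.1% were lower. Members held 1157157 UMIs and other cells 27908586, so few UMIs are expected in members for a gene near the limit of 50 UMIs. With at least 500 UMIs per gene, a filter chosen after seeing the data, 16.7% passed 1.5-fold in either direction, against 27.7%. The part of low counts in the excess of lower genes was not tested. The 12 genes with the largest ratios upwards were Rflnb, Klhdc2, Ass1, Gstp3, Arl4c, Drosha, B3galt4, Scml4, Kcnab2, S1pr4, Flt3l and Hvcn1. Rflnb (refilin B, a regulator of actin filaments) was at 67.0 CPM in Lta-/- members and 46.4 CPM in Foxp3eGFP members, against 23.4 and 16.4 CPM in the other cells of those mice, and its log2 ratio was 1.53 (1.14 to 1.90). Arl4c, a small GTPase, had the highest level of the 12, at 318 CPM in Lta-/- members and 368 CPM in Foxp3eGFP members, against 141 and 159 CPM in other cells. Both genes were higher in members of each mouse.

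Ass1, the argininosuccinate synthase of arginine synthesis, was at 157 CPM in members and 64.3 CPM in other cells. Drosha, the nuclease of microRNA maturation, was at 104 CPM in members and 47.8 CPM in other cells. Flt3l, a cytokine for dendritic cell precursors, was at 77.8 and 43.6 CPM, and S1pr4, a relative of S1pr1, at 83.0 and 46.0 CPM. The log2 ratios of the 12 ranged from 0.83 for Hvcn1 to 1.53 for Rflnb, and no single cell accounted for any, since each ratio stayed at 0.74 or more without its highest cell. All 24 genes named for this comparison had the same direction in both mice. They were picked by their ratio over the same mice pooled, so this agreement follows largely from the choice. It was not counted over all genes.

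**Figure D2:**
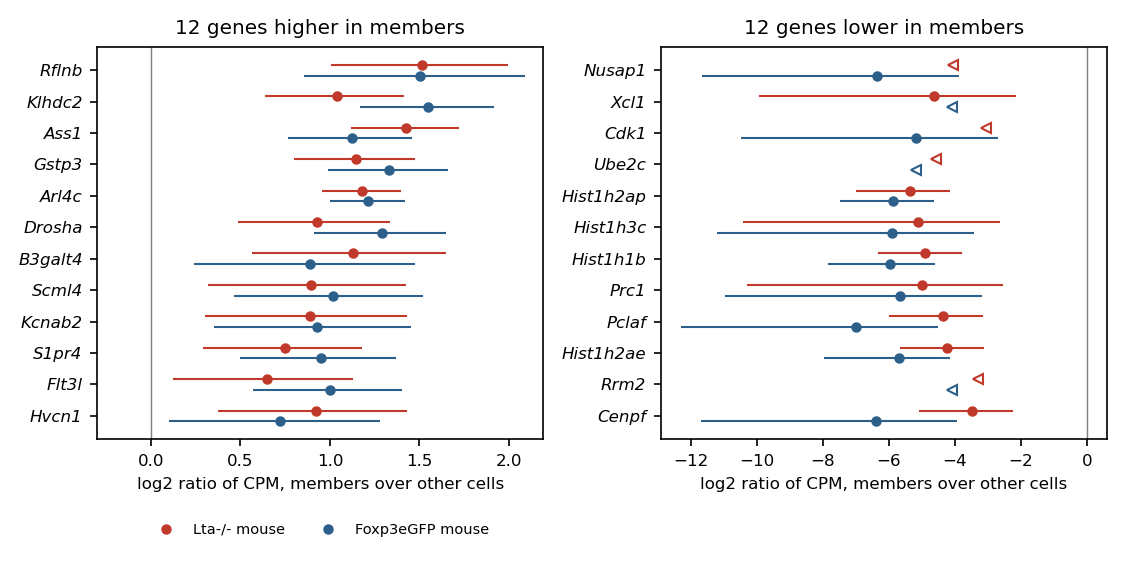
Log2 ratio of CPM in members over other cells (horizontal axes) for the 12 largest ratios in each direction, separately in the Lta-/- and the Foxp3eGFP mouse, with 95% counting intervals. Open triangles are upper bounds for genes with 0 UMIs in the members of that mouse, such as Ube2c in both. All 24 genes lie on the same side of 0 in both mice, but they were picked by their ratio over these mice pooled.

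Among the 12 genes with the largest ratios downwards, 11 were cell cycle or histone genes (Nusap1, Cdk1, Ube2c, Hist1h2ap, Hist1h3c, Hist1h1b, Prc1, Pclaf, Hist1h2ae, Rrm2 and Cenpf). The rule demanded 0 UMIs of Mki67 and Top2a, a choice that bears on these 11 genes, so they are not read as a result about members. Ube2c had 0 UMIs in members, against 158 CPM in other cells. The remaining gene was Xcl1, the chemokine XCL1, with 1 UMI in members and 67.4 CPM in other cells, where 554 of its UMIs were in 1 cell. The proliferation list had 14 of 20 genes lower in members, and its sum was 1474 CPM in members and 4397 CPM in other cells.

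Of the Treg list's 17 measured genes out of 18, 14 were at least 1.5-fold lower in members and 0 higher, and its sum was 771 CPM in members and 2448 CPM in other cells, a log2 ratio of -1.67 (-1.76 to -1.57). Ikzf2, which encodes the Treg transcription factor Helios, was at 87.3 CPM in members and 836 CPM in other cells. Ctla4, an inhibitory receptor of Treg cells, was at 13.8 and 55.4 CPM. Tnfrsf4, which encodes the costimulatory receptor OX40, was at 102 CPM in members and 478 CPM in other cells, and Tnfrsf18, which encodes GITR, at 102 and 312 CPM. Izumo1r, the folate receptor 4 gene, was at 215 CPM in members and 212 CPM in other cells and so stood outside this pattern. Foxp3, Il2ra and Tnfrsf9 were in the rule and were counted in no list, and cells without them are a choice that bears on their neighbours in this list.

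Genes of the NF-kB pathway and of T cell receptor signals were low in members as well. In the TNF receptor and NF-kB list 15 of 19 measured genes were lower, with Nfkb2 at 7.78 CPM in members against 31.3 CPM and Relb at 21.6 against 46.9 CPM. In the T cell receptor signal list 13 of 22 were lower, with Nr4a1, an immediate early gene, at 16.4 CPM in members and 54.5 CPM in other cells. Pdcd1, which encodes PD-1, was at 6.91 and 30.8 CPM, and Bcl2l11, the gene of the death factor BIM, at 16.4 and 92.1 CPM. Cd5, whose level follows receptor signal strength, was nearer, at 370 CPM in members and 473 CPM in other cells.

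Immature thymocyte genes were lower in 14 of 18 measured cases and higher in 0. Cd24a had 3 UMIs in members, 2.59 CPM, against 27.1 CPM in other cells. Sox4 was at 63.1 CPM in members and 244 CPM in other cells, and Cd69 at 69.1 and 105 CPM. The recombination genes Rag1 and Rag2 had 0 UMIs in members. The rule demanded 0 UMIs of Ccr9, a receptor gene of immature thymocytes, a choice that bears on the genes of this list.

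Naive T cell genes differed less. Of 27 genes in the naive and quiescence list, 4 were at least 1.5-fold higher in members (Lef1, Tgfbr2, Il7r and Tsc22d3) and 0 lower, with a median log2 ratio of 0.19. Lef1, a partner of Tcf7 in T cell development, was at 788 CPM in members and 521 CPM in other cells. Klf2, the transcription factor that drives S1pr1, was at 919 and 639 CPM, a log2 ratio of 0.52 (0.43 to 0.61) that stayed under 1.5-fold. Ccr7 was at 326 and 255 CPM and Tcf7 at 591 and 605 CPM. Tsc22d3 rested on the Foxp3eGFP mouse: its log2 ratio was -0.24 in the Lta-/- mouse and 1.25 in the Foxp3eGFP mouse.

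Cytokine receptor genes were mixed. Il6ra was at 89.0 CPM in members and 50.5 CPM in other cells, and Il4ra at 54.4 and 32.5 CPM. Il2rb, a chain of the interleukin 2 receptor, was at 21.6 CPM in members against 72.6 CPM, and Cish, a target of STAT5, at 13.8 against 53.8 CPM. The insulin-like growth factor list holds the growth factors, their receptors, other binding proteins and related genes, and 13 of its 17 genes had 0 UMIs in members. Members held 1157157 UMIs in all and other cells 27908586, so a rare transcript is missed more easily in members. Igf1r, the receptor of insulin-like growth factor 1, was at 7.78 CPM in members and 27.2 CPM in other cells, and Igf2r at 86.4 and 142 CPM. Of the 8 measured chemokine receptors 6 were lower, among them Cxcr4 with 1 UMI in members.

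Among the remaining lists, 0 of 16 ribosome biogenesis genes passed 1.5-fold, and of 8 Gimap genes Gimap7 was lower. In the lineage regulator list 7 of 17 were lower and Lef1 was higher, and in the Wnt list Lef1 was higher and Tle1 lower among 11. The apoptosis list had 6 of 12 lower, the AP-1 and heat shock list 3 of 16 lower, the adhesion list 7 of 19 lower and the TNF ligand list 3 of 9 lower. Of the 13 MHC class I genes only H2-Q6 passed, lower in members, with log2 ratios of -3.08 in the Lta-/- mouse and 0.18 in the Foxp3eGFP mouse. In the egress list S1pr4 and Il7r were higher among 20, and in the interferon list Ifi213 among 20.

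A closer set of cells met every other condition of the rule but had 0 UMIs of the pair (622 cells). Against them 4.12% of 6802 measured genes were at least 1.5-fold higher in members and 14.0% lower. The Treg list still had 11 of 13 measured genes lower, at 771 CPM in members and 1923 CPM in those cells. The TNF receptor and NF-kB list had 15 of 17 lower and the T cell receptor signal list 13 of 19 lower. Ribosome biogenesis genes, in contrast, were higher in 7 of 14, with sums of 3581 and 2769 CPM, and 5 of 12 proliferation genes were higher (Mcm2, Mcm3, Mcm5, Mcm6 and Pcna). The naive and quiescence sum was 8739 CPM in members and 8934 CPM in those cells. Those cells also held more transcripts of other cell types: the plasma cell list was at 21.6 CPM in members and 291 CPM in them, the gamma-delta list at 5.19 and 59.2 CPM, and the myeloid list at 144 and 406 CPM. The part of these cells in the differences was not tested.

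Within the cells that met the rest of the rule, list levels moved with the pair. From 0, 1, 2, 3 and 4 to 7 to 8 or more UMIs, the Treg list was at 1923, 1276, 1160, 1059, 871 and 550 CPM. The TNF receptor and NF-kB list was at 1901, 1783, 1690, 1122, 1053 and 811 CPM in the same order. The interferon list had no such order, at 5783, 6436, 5611, 6520, 5756 and 6233 CPM. Median depth differed along these bins, at 4267.5 UMIs for 0 and 7192 UMIs for 8 or more, and its part was not tested.

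S1pr1-high cells were the class next to members in the rule. These 326 cells also had 0 UMIs of the 6 genes, but at least 3 UMIs of S1pr1, and their Igfbp4 was at 405 CPM. Against them, 5.15% of 5751 measured genes were at least 1.5-fold higher in members and 10.6% lower, 15.7% in all. Ribosome biogenesis genes were higher in 8 of 13 measured cases. Their sum was 3581 CPM in members and 2500 CPM in S1pr1-high cells, a log2 ratio of 0.52 (0.46 to 0.58). Nop56 and Nop58, core proteins of nucleolar ribonucleoproteins, were at 138 and 144 CPM in members, against 84.1 and 91.6 CPM in S1pr1-high cells. Replication licensing genes were higher as well: Mcm3 was at 80.4 CPM in members and 23.6 CPM in S1pr1-high cells and Mcm5 at 40.6 and 8.64 CPM. In all, 7 of 11 measured proliferation genes were higher, and Stmn1 stood at 206 against 111 CPM. The proliferation sum was 1474 CPM in members and 1058 CPM in S1pr1-high cells, a log2 ratio of 0.48, but -0.31 for the 23 members with both genes of the pair. Within members it stood at 2033 CPM in cells with 0 UMIs of S1pr1, and at 1090 and 1110 CPM in cells with 1 and 2 UMIs, near the S1pr1-high level.

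Named by size of ratio, the 8 genes highest over S1pr1-high cells were Cd74, Drosha, Mcm3, Znrd2, Tipin, Wdr18, Mettl1 and Wdr12. Cd74 rested on the 1 cell described above: its log2 ratio was 2.21 with that cell and -0.87 without it. Tipin belongs to the replication fork, Mettl1 modifies transfer RNA and Wdr12 acts in ribosome assembly. The 8 lowest were S100a6, Arhgap20, Ikzf4, Ift80, Hsdl2, Ikzf2, Gse1 and Ecm1. S100a6, a calcium-binding protein gene of effector and memory T cells, had 5 UMIs in members (4.32 CPM) against 78.3 CPM in S1pr1-high cells. Ikzf2 was at 87.3 CPM in members and 294 CPM in S1pr1-high cells. Ikzf4, which encodes Eos, had a log2 ratio of -1.95.

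Of the Treg list, 6 of 11 measured genes were lower than in S1pr1-high cells, with sums of 771 and 1309 CPM. Of the Gimap genes, GTPases of mature T cells, 4 of 8 were lower: Gimap7 was at 48.4 CPM in members and 139 CPM in S1pr1-high cells and Gimap3 at 337 and 585 CPM. Klf2 was alike at 919 and 974 CPM, with an interval of the log2 ratio from -0.20 to 0.03. Klf3 was at 89.9 CPM in members and 206 CPM in S1pr1-high cells, and Itm2a, a gene of immature single-positive cells, at 386 and 193 CPM. Il7r was at 371 and 255 CPM. The sum of the immature list was not lower in members than in S1pr1-high cells. Its log2 ratio was 0.15, and from -0.42 to 0.42 in the 11 alternatives run.

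Ccr9-high cells, 213 in number, had at least 3 UMIs of the immature thymocyte chemokine receptor gene Ccr9 and 0 UMIs of Foxp3, Il2ra, Tnfrsf9, Mki67 and Top2a. Against them, 5.08% of 5416 measured genes were at least 1.5-fold higher in members and 24.6% lower, 29.7% in all. Egress genes were higher in 15 of 20 cases and lower in 2 (Emb and Il7r), with sums of 12437 CPM in members and 5788 CPM in Ccr9-high cells. Klf2 was at 919 CPM in members and 197 CPM in Ccr9-high cells and Cd55 at 44.1 and 4.96 CPM. S1pr4 was at 83.0 and 14.1 CPM. MHC class I genes were higher in 4 of 12 (B2m, H2-K1, H2-D1 and H2-Q7), with H2-K1 at 1607 and 537 CPM. Interferon response genes were higher in 13 of 19, with sums of 6077 and 2786 CPM.

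Immature genes went the other way. Of 11 measured, 10 were lower in members than in Ccr9-high cells. Both classes were chosen by Ccr9, which bears on these genes. Itm2a was at 386 CPM in members and 2484 CPM in Ccr9-high cells, Sox4 at 63.1 and 361 CPM and Cd69 at 69.1 and 180 CPM. Lineage regulators were lower in 9 of 13. Satb1, a chromatin organiser of thymocytes, was at 702 CPM in members and 2614 CPM in Ccr9-high cells, Gata3 at 38.9 and 162 CPM, and Zbtb7b, which directs the CD4 fate, at 38.0 and 77.8 CPM. The naive and quiescence list split, with 10 genes higher and 7 lower of 25.

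The 8 genes highest over Ccr9-high cells were Klhdc2, BE692007, Ms4a4b, Ms4a6b, Ifit3, Ifi213, S1pr4 and Ly6a. Ms4a4b, a membrane protein gene of mature T cells, was at 1635 CPM in members and 220 CPM in Ccr9-high cells. The 8 lowest were Tyrobp, Lztfl1, Nedd4, Marcks, Arhgap20, Tcf4, Kif23 and Hivep3. Of these, 106 of the 213 Tyrobp UMIs and 30 of the 94 Tcf4 UMIs of Ccr9-high cells were in 1 cell each. Lztfl1 was at 30.3 CPM in members and 460 CPM in Ccr9-high cells.

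**Figure D3:**
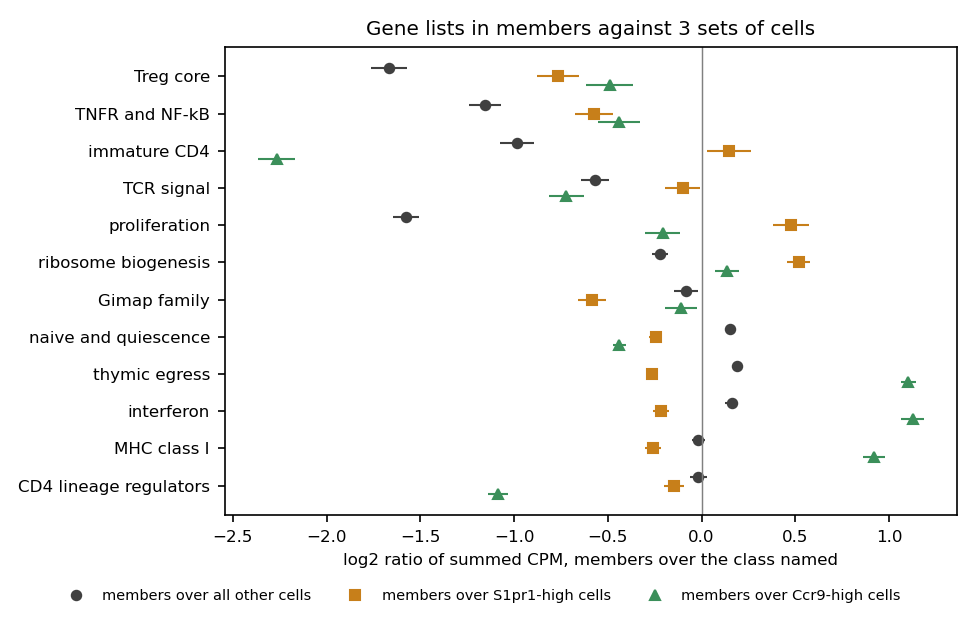
Log2 ratio of summed CPM (horizontal axis) in members over all other cells, over S1pr1-high cells and over Ccr9-high cells, for 12 gene lists, with 95% counting intervals. The Treg list is below 0 in all 3 comparisons (-1.67, -0.76 and -0.49), while ribosome biogenesis stands at 0.52 over S1pr1-high cells and egress at 1.10 over Ccr9-high cells.

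Members varied among themselves. Those with 0 UMIs of S1pr1 (62 cells) were set beside those with 1 or 2 (108 cells), classes that the rule did not separate. Over 3037 measured genes, 6.78% were at least 1.5-fold higher in the first and 6.32% lower. Proliferation genes were higher in 7 of 9, with sums of 2033 CPM at 0 S1pr1 UMIs and 1101 CPM at 1 or 2. Ribosome biogenesis genes were higher in 3 of 11 (4414 and 3025 CPM). Egress genes were lower in 5 of 20, among them Foxo1, Klf3, Gimap6 and Gimap3, and the list stood at 10804 and 13528 CPM.

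Members with a UMI of Ikzf2 numbered 28, of which 15 were from the Lta-/- mouse and 13 from the Foxp3eGFP mouse. Compared with the 142 members without it, 6.65% of 3037 genes were higher and 10.6% lower. Of the 7 measured Treg list genes 5 were higher, and 1 of these was Ikzf2 itself, which chose the cells. The others were Tnfrsf4, Tnfrsf18, Capg and Izumo1r. The list sums were 1616 CPM with and 594 CPM without Ikzf2. Igfbp4 was at 761 CPM in members with Ikzf2 and 1169 CPM in those without, and Il7r at 295 and 386 CPM.

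The 30 members with Dapl1 were compared with the 140 that had Igfbp4 alone, where 4.71% of 3037 genes were higher and 14.5% lower. Proliferation genes were lower in 6 of 9 measured cases, with sums of 903 CPM with Dapl1 and 1585 CPM with Igfbp4 alone. Ribosome biogenesis stood at 2843 and 3724 CPM, with Nop56 lower among 11 genes. Members with 8 or more UMIs of the pair, set against those with 3 to 7, had 2.90% of 3037 genes higher and 5.89% lower. In that comparison 4 of 7 Treg list genes were lower (Ikzf2, Tnfrsf4, Tnfrsf18 and Izumo1r) and Icos was higher.

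The last comparison was of the Lta-/- mouse with the Foxp3eGFP mouse within members, which addresses how loss of Lta bears on these cells. Lta itself, on chromosome 17 at 35203165 to 35205578, had 0 UMIs in 597045 UMIs of Lta-/- members and 8 UMIs in 560112 UMIs of Foxp3eGFP members. In other cells it had 72 UMIs in the Lta-/- mouse and 501 in the Foxp3eGFP mouse. Ltb, its partner chain, was at 553 CPM in Lta-/- members and 716 CPM in Foxp3eGFP members. Xist had UMIs in 78 members of each mouse and the Y-linked Ddx3y had 0. Of 3037 measured genes, 3.75% were at least 1.5-fold higher in Lta-/- members and 4.68% lower, 8.43% in all. Effects of genotype and of the individual mouse cannot be told apart here.

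Interferon response genes were the list with the most genes past 1.5-fold. Of 18 measured genes among its 20, 12 were lower in Lta-/- members and 0 higher. The list's median log2 ratio was -0.81, against -0.01 over all genes. Its sum was 4641 CPM in Lta-/- members and 7607 CPM in Foxp3eGFP members, a log2 ratio of -0.71 (-0.78 to -0.64). All 20 genes were below 0, and for 17 the counting interval was below 0. Intervals below 0 were counted for this list alone, without a share over all genes.

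Ifit1, an RNA-binding antiviral protein gene, had 24 UMIs in Lta-/- members, found in 16 of 85 cells, and 121 UMIs in Foxp3eGFP members, found in 47 of 85 cells. Its log2 ratio was -2.43 (-3.12 to -1.79). Isg15, which encodes a ubiquitin-like modifier, was at 167 CPM in Lta-/- members and 509 CPM in Foxp3eGFP members. Irf7, a transcription factor that amplifies interferon production, was at 83.8 and 212 CPM, and Igtp, an interferon-induced GTPase gene, at 72.0 and 179 CPM. Xaf1 was at 73.7 CPM in Lta-/- members and 191 CPM in Foxp3eGFP members. Ifi27l2a, the most abundant gene of the list, was at 2211 and 3296 CPM, a log2 ratio of -0.58. Ifi203 was at 375 and 437 CPM, within 1.5-fold.

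**Figure D4:**
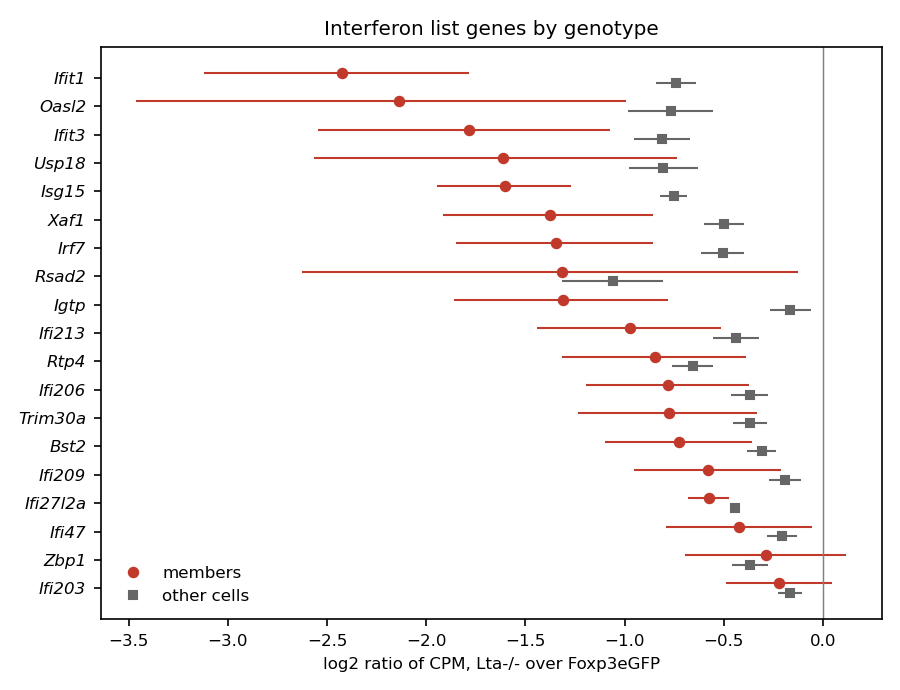
Log2 ratio of CPM in Lta-/- over Foxp3eGFP cells (horizontal axis) for genes of the interferon list, in members and in all other cells, with 95% counting intervals. All genes drawn are below 0 in both classes, and all but Zbp1 are further below 0 in members.

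The other cells showed the same direction. In them 7 of 20 genes were lower, against 2.48% higher and 2.77% lower over 10652 genes, and the list stood at 4654 CPM in Lta-/- cells and 6172 CPM in Foxp3eGFP cells, a log2 ratio of -0.41 (-0.42 to -0.39). The ratio was further below 0 in members for 19 of the 20 genes, all but Zbp1. For 8 genes (Ifi27l2a, Ifit1, Ifit3, Igtp, Irf7, Isg15, Oasl2 and Xaf1) the intervals of members and other cells did not overlap. Neither count was made over all genes, so how unusual they are is unknown. In S1pr1-high cells the log2 ratio of the sum was -0.27, in Ccr9-high cells -0.91 and in the cells with 0 UMIs of the pair -0.42. Members were thus neither the only class nor the one furthest below 0, and the difference between classes was not tested.

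Per cell, the list had a median of 4002 CPM in Lta-/- members (quartiles 2659 and 5765) and 7404 CPM in Foxp3eGFP members (quartiles 4830 and 10164). The highest cell held 3.64% of the list's UMIs in Lta-/- members and 5.35% in Foxp3eGFP members, so no single cell carried the sum. The cells of the mice overlapped, with ranges of 553 to 18200 CPM in Lta-/- members and 1017 to 23617 CPM in Foxp3eGFP members.

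**Figure D5:**
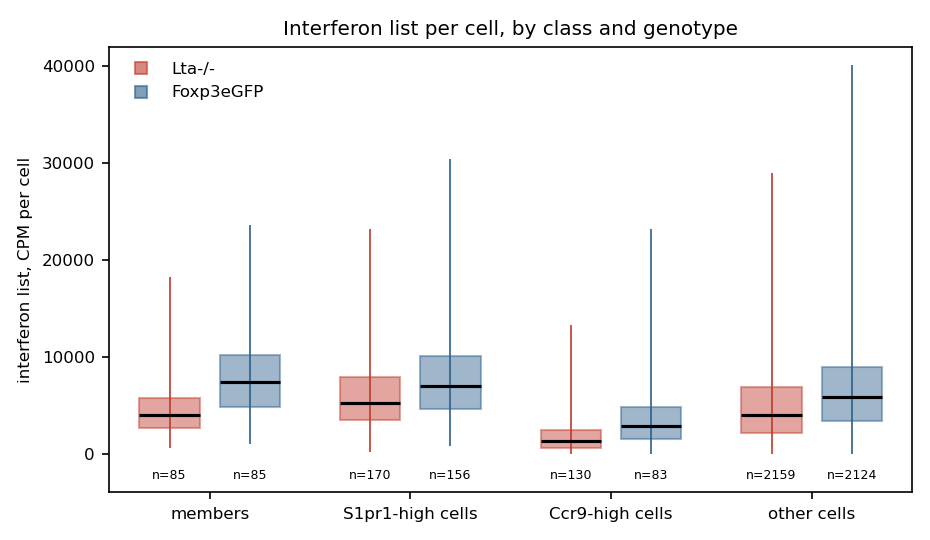
Interferon list level per cell (CPM, vertical axis) in 4 classes by mouse. Black lines are medians, boxes quartiles and thin lines the full range; Lta-/- members have a median of 4002 CPM and Foxp3eGFP members 7404 CPM.

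Genes of this kind are known to be driven through interferon-stimulated response elements, in which short GAAA repeats are bound by STAT and IRF factors. The letters GAAA, any 2 bases and GAAA again were searched on both strands in the 250 bases upstream of each gene's RefSeq start (GRCm38.p6), overlapping matches included. Of the 20 list genes 15 matched an entry, and 10 of these held the letters, against 936 of all 27025 genes (3.46%). Of the 8 genes lowest in Lta-/- members, most of which are list genes, 7 had an entry and 5 held them. The list was chosen as interferon response genes, so these counts describe the choice of genes and not these cells. A match describes the letters in the window only, and no match says only that they are not there. The stretches upstream of Isg15, Ifit1 and Igtp, 3 of the 8 lowest genes, and of Ifit3, a list gene with a log2 ratio of -1.78, are shown because each held a match and its intervals in members and other cells did not overlap, with the matching letters in capitals, 5′ to 3′ on the gene's strand.
Isg15 (chr4:156200863-156200908, minus strand): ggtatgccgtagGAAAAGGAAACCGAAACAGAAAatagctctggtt
Ifit1 (chr19:34640773-34640825, plus strand): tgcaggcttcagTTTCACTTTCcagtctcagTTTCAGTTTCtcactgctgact
Ifit3 (chr19:34583361-34583428, plus strand): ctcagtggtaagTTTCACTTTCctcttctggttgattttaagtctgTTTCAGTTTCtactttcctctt
Igtp (chr11:58199510-58199543, plus strand): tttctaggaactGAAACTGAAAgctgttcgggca
Isg15 held 3 overlapping matches, Ifit1 and Ifit3 held 2 each, on the opposite strand, and Igtp held 1. The Ifit3 stretch is upstream of the start in its promoter entry only. It lies inside the gene's full RefSeq span, 34583119 to 34588982. Irf7, Xaf1 and Oasl2, whose intervals did not overlap either, held none in this window.

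The sums of the other pathway lists differed less than that of the interferon list. The TNF ligand list holds Lta itself, which the Lta-/- mouse lacked, and Ltb, which made up most of its sum (553 and 716 CPM). The sum was 643 CPM in Lta-/- members and 862 CPM in Foxp3eGFP members. Its log2 ratio of -0.42 was below 0 in all 11 alternatives run. The Treg list had 0.36, but -0.79 for members with both genes of the pair, the T cell receptor signal list 0.33 and the egress list -0.30. Naive and quiescence genes stood at 8777 CPM in Lta-/- members and 8698 CPM in Foxp3eGFP members, with Tsc22d3, a glucocorticoid-induced gene, lower (36.9 and 114 CPM) among 25. Of the egress list 0 of 20 passed 1.5-fold. In the Treg list Ikzf2 and Izumo1r were higher and Tnfrsf18 was lower among 7. Ikzf2 was at 116 CPM in Lta-/- members and 57.1 CPM in Foxp3eGFP members, in 15 and 13 cells, with 13 of the 69 UMIs of Lta-/- members in 1 cell. Its log2 ratio was 1.02, but -0.24 when cells were thinned to 3000 UMIs. Izumo1r was at 286 CPM in Lta-/- members and 139 CPM in Foxp3eGFP members. In the NF-kB list Nfkbia, an inhibitor that NF-kB induces, was at 151 and 259 CPM and Tnfrsf18 at 82.1 and 123 CPM, both lower among 6. Single genes passed in other lists: Myc, Apc, Id3, Itgb1 and H2-Q7 were higher in Lta-/- members, and Cd40lg, Il21r, Pim1, Tle3, Gimap7 and H2-M3 were lower. Of proliferation, ribosome biogenesis, immature, apoptosis and heat shock genes 0 passed.

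The 8 genes highest in Lta-/- members were Cd74, Dnah8, Glo1, Izumo1r, Ikzf2, Ctsb, Snx5 and Ifi27. Cd74 had 107 UMIs in Lta-/- members, 98 of them in 1 cell, and 4 in Foxp3eGFP members. Dnah8 was at 178 CPM in Lta-/- members and 55.3 CPM in Foxp3eGFP members, and Glo1, which encodes glyoxalase 1, at 248 and 92.8 CPM. Both lie on chromosome 17, at 30626935 and 30592861, and stood apart to the same extent in other cells, with log2 ratios of 1.37 and 1.36. H2-Q7, an MHC class I gene, was at 283 CPM in Lta-/- members and 179 CPM in Foxp3eGFP members. Ifi27, which is not in the interferon list, went the other way from that list. It was at 161 CPM in Lta-/- members and 91.1 CPM in Foxp3eGFP members, a log2 ratio of 0.82 (0.32 to 1.34). In other cells its log2 ratio was 0.11. The 8 lowest were Ifit1, Isg15, Xaf1, Irf7, Igtp, Ifi208, Slfn5 and Ly6a. Of these Ifi208, Slfn5 and Ly6a are outside the list. Ifi208 had a log2 ratio of -1.20 in members and -0.95 in other cells, Slfn5 of -1.11 and -0.10, and Ly6a of -1.06 and -0.02. Il7r was at 399 and 341 CPM, a log2 ratio of 0.23 (-0.06 to 0.51), while in other cells it was 0.47.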

How the data were processed

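The authors deposited raw UMI counts (whole numbers) for each gene and hashtag in 1 matrix of 4798 barcodes and 32285 genes. The submitters' processing notes name Cell Ranger 6.0.1 and mm10 (GRCm38), without settings. Hashtags were assigned by the deposited feature names, whose numbering differs from that in the labels' protocols. Cells with at least 500 genes, at most 10% mitochondrial UMIs and 1 hashtag at 80% or more were used (4453; 2244 Lta-/- and 2209 Foxp3eGFP). Doublets within a mouse were not removed.

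Counts were summed over cells and expressed as CPM. Clopper-Pearson intervals were used for shares and, conditional on a gene's total count, for ratios. A gene with 0 UMIs was set to 3 counts for its ratio. A call is a ratio of 1.5-fold with 50 or more UMIs over both classes. Named genes were the 12 largest ratios each way against other cells and 8 elsewhere, with 100 or more UMIs when both classes are summed and, in the class with more, at least 50 CPM, leaving out the rule's 9 genes, mitochondrial, ribosomal protein, Gm, Rik, sex-linked and V(D)J genes. List members and genes of the marker lists could be named too. There were 20 gene lists and 12 marker lists. The members and lists were chosen with earlier results of these data known. Cells were placed by 30 principal components of 2000 variable genes, with 15 neighbours (the cell itself counted) and Leiden clustering at resolution 0.6. Ratio intervals were checked on sums simulated with counting error alone, which does not cover spread between cells or mice. Python 3.11.15, numpy 2.4.6, scipy 1.17.1, pandas 2.3.3, scikit-learn 1.9.0 and igraph 0.11.9 were used. Some genes of the lists are counted but not reported here by name or value.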

Additional observations from a re-analysis of the deposited data

Results flagged for a closer look

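Lyz2, a myeloid marker, had 54 UMIs in Lta-/- members and 0 in Foxp3eGFP members, a log2 ratio of at least 4.08, while in other cells the ratio was -1.46. Of those UMIs 53 were in 1 Lta-/- member. Set against other cells of the same mouse, members had log2 ratios for Lyz2 of 1.91 in the Lta-/- mouse and at most -3.63 in the Foxp3eGFP mouse, where they had 0 UMIs. For Cd74 these ratios were 0.96 and -3.60, and for H2-Aa 1.71 and, with 0 UMIs in Foxp3eGFP members, at most -0.68. The same cell held most of these UMIs.

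Several list genes had members above other cells in the Foxp3eGFP mouse and below them in the Lta-/- mouse. Cd7, a T cell surface protein gene, had ratios of -0.83 in the Lta-/- mouse and 1.02 in the Foxp3eGFP mouse, from 19 and 50 UMIs in members. Oasl2, an interferon response gene, had -0.63 and 0.73, from 8 and 33 UMIs. Il10ra had -1.39 and 1.40 and Polr1b -1.96 and 0.72, each from 1 UMI in Lta-/- members and 5 and 6 UMIs in Foxp3eGFP members. The difference between the mice was not tested for any of these genes.

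Among the 185 cells with both hashtags, which entered no comparison, 2 met the RNA part of the rule (1.08%).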

How the results depend on the processing

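No paired analysis was possible because each genotype was 1 mouse and the labels give no replicate numbers. The log2 share ratio stayed between -0.24 and 0.16 in the 10 alternatives run. The share of members with Dapl1 was 100% by construction where both genes were required, and 8.06% with S1pr1 at 0 UMIs. Against other cells 2968 genes passed 1.5-fold. This count was 5749 where both genes were required (23 members) and 1235 against cells with 0 UMIs of the pair. Against S1pr1-high cells 903 genes passed, 1474 where both genes were required and 495 in the held-out portion. Against Ccr9-high cells 1606 passed, 854 after thinning and 860 in the held-out portion. Between the mice 256 passed in members, 28 where both genes were required, 139 with S1pr1 at 0 and 108 after thinning. With at least 500 UMIs per gene, a filter chosen after seeing the data, these counts were 1027 (16.7% of genes measured), 41 (5.62%), 122 (20.4%) and 1 (0.395%), the ribosomal protein gene Rps2, named after its values were seen. The shares fell as well, so the calls between the mice lie almost all in genes with fewer UMIs. The interferon log2 ratio of -0.71 was -0.89 with 5 or more UMIs of the pair, -0.60 with S1pr1 at 0, -0.55 after thinning, -0.64 in the held-out portion and -0.83 without Ifi27l2a, which was left out after seeing the data.

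Some named genes changed sign. Against cells with 0 UMIs of the pair, Pclaf was at 0.55, Hist1h2ae at 0.064 and Cenpf at 0.41. Cd74 against S1pr1-high cells was at -1.25 with 5 or more UMIs of the pair, -1.66 where both genes were required, -1.44 after thinning, -1.31 in the held-out portion and -0.87 without the 1 cell, an alternative chosen after seeing the data. Where both genes were required, Tipin was at -0.30 against S1pr1-high cells, and between the mice Ikzf2 was at -2.10 and Ifi27 at -0.39. After thinning Ikzf2 was at -0.24. The cause was not tested. These 12 are the values past 1.5-fold that changed sign among the genes named by size of ratio. Other list genes were not rerun one by one. Of 1788 values of named genes and list sums under an alternative, 466 moved outside the main counting interval, beside these 12. The interferon sum between the mice is not in that count. Of 941 sums of lists under an alternative, 72 had the other sign, in 32 of 80 list comparisons, whose main values were at most 0.48 from 0.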
